A study of Mus musculus with 14 samples.

Results

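Cytosolic ribosomal proteins were followed in the livers of Snell dwarf and wild type mice. A member was any probe set of the array whose annotation held a single gene symbol that began with Rpl or Rps and a digit, or was Rplp0, Rplp1, Rplp2 or Rpsa, with the Rps6k kinases left out. This gave 49 of the 12488 probe sets, for 35 genes. Of these, 37 probe sets for 28 genes passed the filter on low signal (above 184.8, the median of all values, on at least 3 arrays) and were tested with 7227 probe sets in all. The other 12 did not pass, and 7 genes had no tested probe set: Rpl38, Rpl39, Rpl39l, Rps14, Rps15, Rps20 and Rps27l. A further 39 probe sets pair a ribosomal protein symbol with other symbols. They name no single gene and are given only as a group, with 36 of them tested.

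RNA was extracted from snap-frozen liver and hybridised to 14 arrays, with 1 number per title, read here as 1 mouse per array. Wild type mice of 6 months (animals 82, 84, 86 and 88) and dwarf mice of 6 months (83, 85, 87 and 89) gave 4 arrays each. Wild type mice of 22 months (1, 2 and 24) and dwarf mice of 22 months (3, 4 and 8) gave 3 arrays each. The dwarfs carry the Snell mutation of Pit-1, and the wild types are their controls. The labels give no sex, strain background or processing date. Pit-1 is a pituitary transcription factor, so the mutation acts from outside the liver: Snell dwarfs lack growth hormone, prolactin and thyroid-stimulating hormone throughout life. All 7 hepatocyte markers listed, among them Alb and Ttr, read above the floor of 54.9 on every array.

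A cytosolic ribosome is built from a small subunit, which reads the mRNA, and a large subunit, which joins the amino acids. Each holds ribosomal RNA and a set of proteins, named Rps for the small subunit and Rpl for the large. The proteins are made in matched amounts, and most of their mRNAs begin with a run of pyrimidines after an initial C, the 5′ terminal oligopyrimidine (TOP) tract. Through this tract, growth signalling by mTORC1 sets how strongly these mRNAs are translated and how stable they are. Growth hormone, insulin-like growth factor and thyroid hormone all feed ribosome production in liver. Most ribosomal protein genes also have many processed pseudogenes, whose sequence a probe may share.

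Because the TOP tract is described for these genes, the 30 bases around an annotated start are shown for 4 genes higher in young dwarfs that hold a tract. Their tracts are 8 to 13 bases long. Rpl19, higher in young dwarfs as well, holds tracts of only 5 bases and is not shown. Of the genes higher in young dwarfs without a tract, only Rps28 is shown. Rpl13a and Rpl10a, the single calls of the 22-month comparison and of ageing in wild types, are shown as well. The sequences run 5′ to 3′ on the coding strand, from RefSeq on GRCm38.p6. The capitals mark a C followed by at least 4 pyrimidines that starts within 5 bases of the annotated start.
Rps18, chr17:33955651-33955680, minus strand: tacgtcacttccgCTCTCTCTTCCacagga
Rps10, chr17:27635230-27635259, minus strand: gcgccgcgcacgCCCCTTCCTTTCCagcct
Rps24, chr14:24490663-24490692, plus strand: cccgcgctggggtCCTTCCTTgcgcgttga
Rpl7a, chr2:26910792-26910821, plus strand: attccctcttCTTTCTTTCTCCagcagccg
Rpl13a, chr7:45128731-45128760, minus strand: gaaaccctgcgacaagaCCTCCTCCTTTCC
Rpl10a, chr17:28328456-28328485, plus strand: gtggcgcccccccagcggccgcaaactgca
Rps28, chr17:33824548-33824577, minus strand: ggtaccgcgtgcggtctcgcgagagcgaaa
The last 2 hold no such tract near this annotated start. Rpl10a has a further annotated start without a tract, as has Rps24.

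Promoter entries were matched for 28 of the 35 genes. A tract began within 5 bases of an annotated start in 11 of the 28 (39.3%), against 21.2% of all 27025 genes with an entry. It began exactly at the start in 5 of them (17.9%), against 3.01% of all genes. Over the 300 bases from 250 before to 50 after the start, on both strands, CGGAAG, the core bound by ETS factors, stood in 67.9% of these genes and 18.8% of all. AAGATGG, the core of YY1 sites, stood in 25% and 7.28%, and the GC box GGGCGG in 60.7% and 38.2%. The TATA box TATAAA stood in 14.3% and 15.7%. CGGAAG can share letters with the end of GGGCGG or the start of AAGATGG. Of the 10 genes with an entry that were higher in young dwarfs, 5 held a tract, and of the 13 tested genes with an entry that were not, 3 did. A match describes these letters only, and the difference between 5 of 10 and 3 of 13 was not tested. Whether the mRNAs begin at the annotated starts was not tested either. A gene without a match is therefore not shown to lack a TOP tract.

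Ribosomal protein mRNA signal was highest in the livers of 6-month dwarfs. The mean log2 signal of the 37 tested probe sets was 11.01 ± 0.104 in 6-month dwarfs (SD, n = 4), 10.60 ± 0.104 in 6-month wild types (n = 4), 10.70 ± 0.0924 in 22-month wild types (n = 3) and 10.60 ± 0.0442 in 22-month dwarfs (n = 3). Every young dwarf array (10.9 to 11.1) stood above every other array, of which the highest was wild type animal 24 of 22 months at 10.8 and the lowest wild type animal 88 of 6 months at 10.4. Set against the mean of all tested probe sets on the same array, the members stood 1.93 ± 0.117 higher in young dwarfs and 1.58 ± 0.107, 1.67 ± 0.0662 and 1.58 ± 0.0827 higher in young wild types, old wild types and old dwarfs. The 36 several-symbol probe sets followed the same order of groups at the top, at 2.75 ± 0.172 in young dwarfs and 2.32 to 2.45 in the others. All 49 member sets, tested or not, made up 2.53% ± 0.222 of an array's summed signal in young dwarfs and 1.83% ± 0.168 in young wild types. The share was 2.06% ± 0.108 in old wild types and 1.93% ± 0.161 in old dwarfs. In whole liver, more mRNA per cell cannot be told apart from a different make-up of cells.

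**Figure D1:**
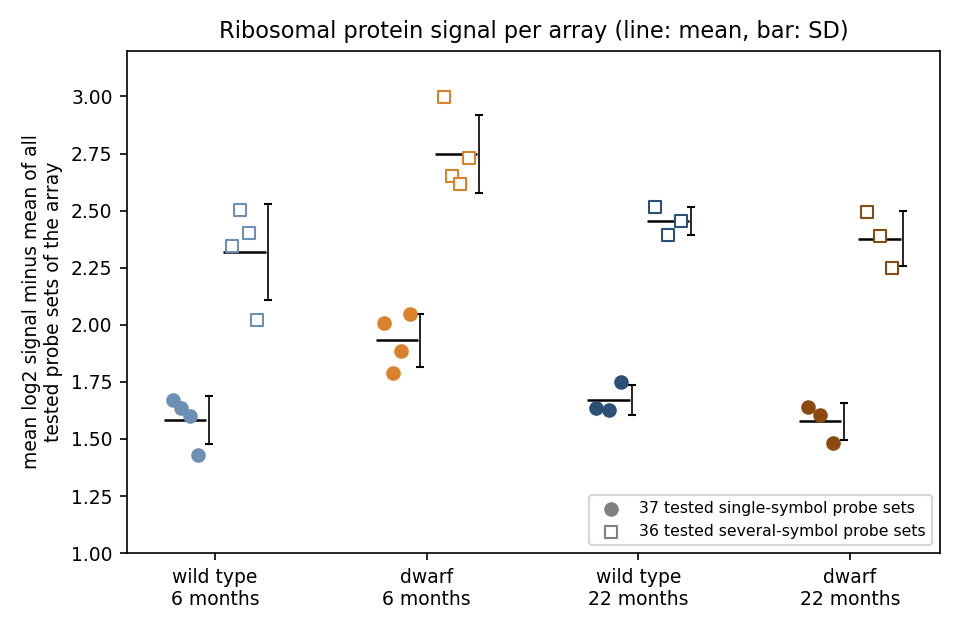
Mean log2 signal of the ribosomal protein probe sets on each of the 14 arrays, less the mean of all tested probe sets of that array, by group; circles are the 37 single-symbol sets, squares the 36 several-symbol sets, lines are means and bars SDs. The 4 young dwarf arrays, at 1.79 to 2.05 for the single-symbol sets, stand above the other 10, of which the highest is 1.75.

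At 6 months the question was how the lifelong loss of Pit-1 bears on these genes in young adults. Ribosomal protein mRNAs of both subunits were higher in dwarfs, by 1.31-fold to 1.93-fold for the bright sets called. In limma's test with Benjamini-Hochberg adjustment over all 7227 probe sets, 13 of the 37 passed an adjusted p of 0.05 and are called higher here. They stand for 12 genes, and 0 were lower. Over all tested probe sets, 6.37% were called higher and 6.95% lower. At an unadjusted p under 0.05, 20 of the 37 differed, and 2095 of all 7227 tested sets did. The log2 difference was above 0 for 31 of the 37, where 59.1% of all tested sets were above 0, and its median was 0.41, against 0.10 for all. The several-symbol probe sets gave 13 higher and 0 lower of 36, with a median of 0.51.

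Among small-subunit proteins, Rps28, which lies where the mRNA leaves the ribosome, was called higher by 2 of its 3 probe sets. The set of standard design read 9931, 11011, 10105 and 6520 in young wild types and 19849, 18164, 18146 and 15315 in young dwarfs. It read 9936, 7451 and 8776 in old wild types and 11732, 10265 and 7364 in old dwarfs. The 4 young dwarfs thus stood above all 10 other mice. The difference at 6 months was 0.95 ± 0.18 on the log2 scale (SE, 1.93-fold, adjusted p = 0.00218). A second set, whose probes are shared across a sequence family, was higher by 0.70 ± 0.17 (adjusted p = 0.0104). The third, dim set gave 0.86 ± 0.41 and was not called (adjusted p = 0.177).

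Rps18, a protein of the head of the small subunit, read 14134, 15467, 14935 and 10540 in young wild types and 24355, 18137, 21475 and 20875 in young dwarfs. In old mice it read 15553, 12981 and 15734 in wild types and 16586, 14649 and 11769 in dwarfs, so that again no mouse of another group reached the young dwarfs. The difference at 6 months was 0.63 ± 0.15 (1.55-fold, adjusted p = 0.0104).

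Rps10, which sits near the mRNA entry and is marked with ubiquitin when ribosomes stall, read 3806, 4933, 5325 and 3223 in young wild types against 8498, 6262, 6786 and 7380 in young dwarfs. Old mice read 5083, 4700 and 5796 (wild type) and 5087, 5264 and 3659 (dwarf). The groups at 6 months did not overlap, and the difference was 0.76 ± 0.17 (1.70-fold, adjusted p = 0.00739).

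Rps13 had the largest difference in log2 units, on a dim probe set built under relaxed design rules. It read 284, 321, 476 and 94.8 in young wild types, 507, 816, 946 and 825 in young dwarfs, and 134 to 197 in the 6 old mice. All but 1 of the old mice, and wild type animal 88, lay below the filter of 184.8 on this set. The difference was 1.57 ± 0.37 (2.98-fold, adjusted p = 0.0104), with wild type animal 88 far below the other 3.

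The other small-subunit genes called higher were Rps3, Rps4x and Rps24. Rps3, at the mRNA entry channel and also known from DNA repair, rose from 6069 ± 888 to 9334 ± 2209 (SD, n = 4 each), a difference of 0.60 ± 0.17 (adjusted p = 0.0276). Its groups overlapped, since dwarf animal 85 read 6539 and wild type animal 86 read 6744. Rps4x, the X-linked form of its protein, rose from 7087 ± 794 to 10494 ± 2039 on its brightest set (0.55 ± 0.14, adjusted p = 0.0147), without overlap. Its other tested sets, both dim, gave 0.22 ± 0.38 and 1.30 ± 0.55 and were not called. Rps24, a protein mutated in Diamond-Blackfan anaemia, rose from 13408 ± 1963 to 19681 ± 3883 on its bright set (0.55 ± 0.15, adjusted p = 0.025). That bright set was built under relaxed design rules. The dim set of Rps24, of standard design, gave 0.46 ± 0.27 (adjusted p = 0.277).

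Of the large-subunit genes, Rpl41 encodes a very short basic peptide. Its only probe set has probes shared across a sequence family. It read 30293, 31527, 28605 and 27379 in young wild types and 39770, 37905, 41151 and 35616 in young dwarfs. The old mice read 29827, 25724 and 31683 (wild type) and 30555, 27800 and 23952 (dwarf), all below every young dwarf. The difference at 6 months was 0.39 ± 0.11 (1.31-fold, adjusted p = 0.0322).

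The other large-subunit genes called higher were Rpl19, Rpl8, Rpl7 and Rpl7a. Rpl19 went from 6575 ± 893 to 9968 ± 2131 (0.58 ± 0.15, adjusted p = 0.0172), and its dim second set gave 1.12 ± 0.62 (adjusted p = 0.247). Rpl8, close to the site where peptide bonds form, went from 6825 ± 480 to 9642 ± 2037 (0.48 ± 0.14, adjusted p = 0.0313). Rpl7 (0.42 ± 0.13, adjusted p = 0.0479) and Rpl7a (0.41 ± 0.12, adjusted p = 0.0374) passed closest to the threshold. The set of Rpl7 is not of standard design. Signals of Rpl8 and Rpl7a did not overlap between the genotypes, while those of Rpl19 and Rpl7 did.

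Among members often used as reference genes or with roles outside translation, Rps18, Rpl19 and Rps3 were called higher, as given above, and others were not called. Rplp0, the base of the ribosomal stalk, read 9448 ± 564 in young wild types and 10629 ± 2149 in young dwarfs (0.15 ± 0.14, adjusted p = 0.495). Rpsa, also described as a laminin receptor, gave 0.25 ± 0.16 (adjusted p = 0.336), and Rpl13a, which can silence translation of selected mRNAs, -0.32 ± 0.20 (adjusted p = 0.296). Just short of the threshold were Rps29 (0.54 ± 0.18, adjusted p = 0.0629), whose young dwarf signals stood above all 10 other arrays, and Rpl32 (0.54 ± 0.19, adjusted p = 0.078). The set of Rpl32 was built under relaxed design rules. Rplp1, Rplp2, Rps6, Rpl3, Rpl10 and Rps27a had no single-symbol probe set and are not analysed here.

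The calls lay among the bright probe sets. Of the 17 members with a mean log2 signal of 12 or more (a signal of 4096), 12 were higher, where 17.8% of the 426 bright sets of the array were. Of the 20 dimmer members 1 was, Rps13. Signals did not overlap between the genotypes for 11 of the 37, all higher in dwarfs, where 9.31% of all sets lay that way and 7.8% the other. In 7 probe sets all 4 young dwarfs stood above the other 10 mice (Rpl41, Rps10, Rps13, Rps18, Rps29 and 2 of Rps28), where 4.1% of all sets did. The probe sets that passed the filter only through the young dwarf arrays were the ones of Rpl35a, the dimmer one of Rps24 and the dimmest of Rps4x, and without these 3 the count stayed at 13 of 34. Fitted with no filter, all 49 members gave 8 higher and 0 lower (3.45% and 3.37% over all 12422 sets), with 40 above 0. The share of all sets above 0 was not counted for this fit.

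**Figure D2:**
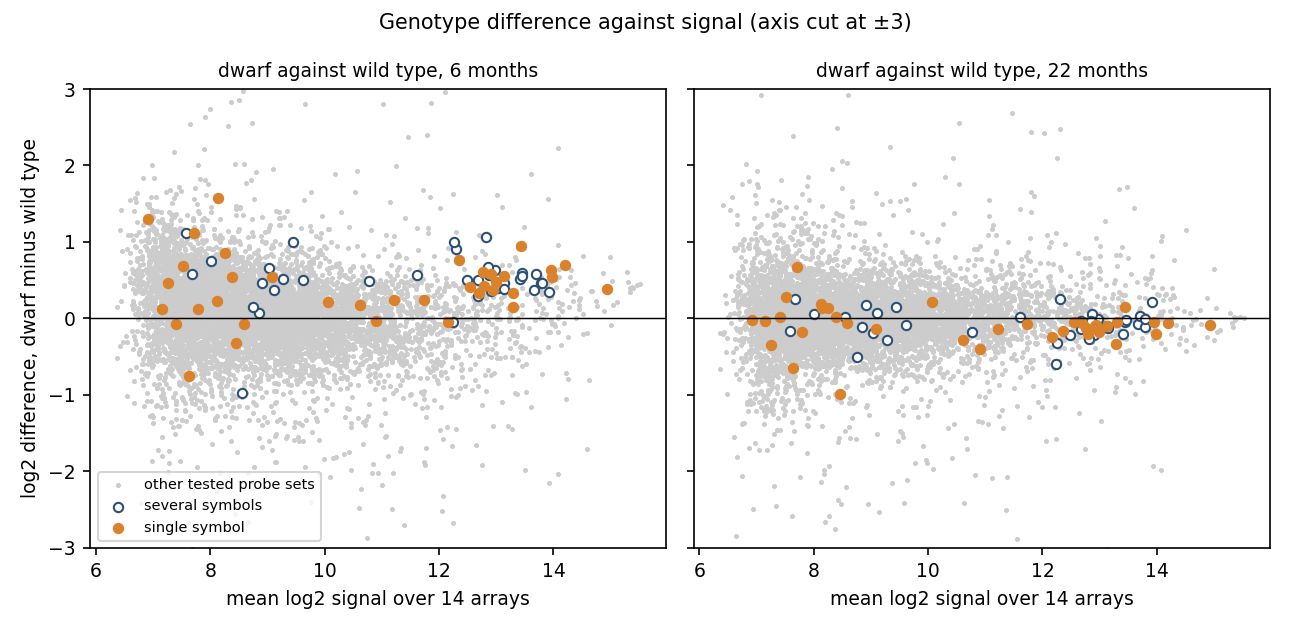
Log2 difference of dwarf minus wild type mice against mean log2 signal over the 14 arrays, at 6 months (left) and 22 months (right), for all tested probe sets (grey), the single-symbol ribosomal protein sets (orange) and the several-symbol ones (open). At 6 months 16 of the 17 bright single-symbol sets lie above 0, where 54% of the 426 bright sets of the array do. At 22 months 1 of the 17 does, where 50.7% of the 426 do.

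Paralogs and disputed sets gave no call. Rps4l, a transcribed pseudogene related to Rps4x, gave -0.75 ± 0.35 (adjusted p = 0.164) on one probe set and 0.68 ± 0.36 (adjusted p = 0.22) on the other at 6 months, so its sets disagreed in sign. Rpl7l1, a relative of Rpl7 with a part in ribosome assembly, gave 0.12 ± 0.22 (adjusted p = 0.745). Both sets of Rpl22 lay at -0.07, and the 2 sets of Rpl10a at 0.24 ± 0.17 and -0.03 ± 0.24. The dimmest tested members by mean signal were the sets of Rps4x, Rpl35a and Rps24 named above, and Rpl35a gave 0.12 ± 0.41.

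Array scaling bears on this comparison because the deposited signals were scaled to one trimmed mean per array. The share of all calls that were higher was 47.8% as deposited, 42.2% after quantile scaling and 18.2% after scaling each array to a common median, which moved the median of all tested sets from 0.10 to -0.10. The members' median moved with it, from 0.41 to 0.36 with quantile scaling and 0.21 with median scaling. It stood above the median of all sets by 0.31 as deposited and by 0.35 after quantile scaling. The other 3 scalings shift all probe sets of an array alike, so they could not move this gap beyond the effect of the floor and filter. The count of members called higher was 13 with quantile scaling, 7 when arrays were scaled on probe sets of like signal, 16 when scaled on the bright sets and 2 with median scaling, the 2 being Rps28 (0.75) and Rps13 (1.38). No member was called lower at 6 months under any of these scalings.

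**Figure D3:**
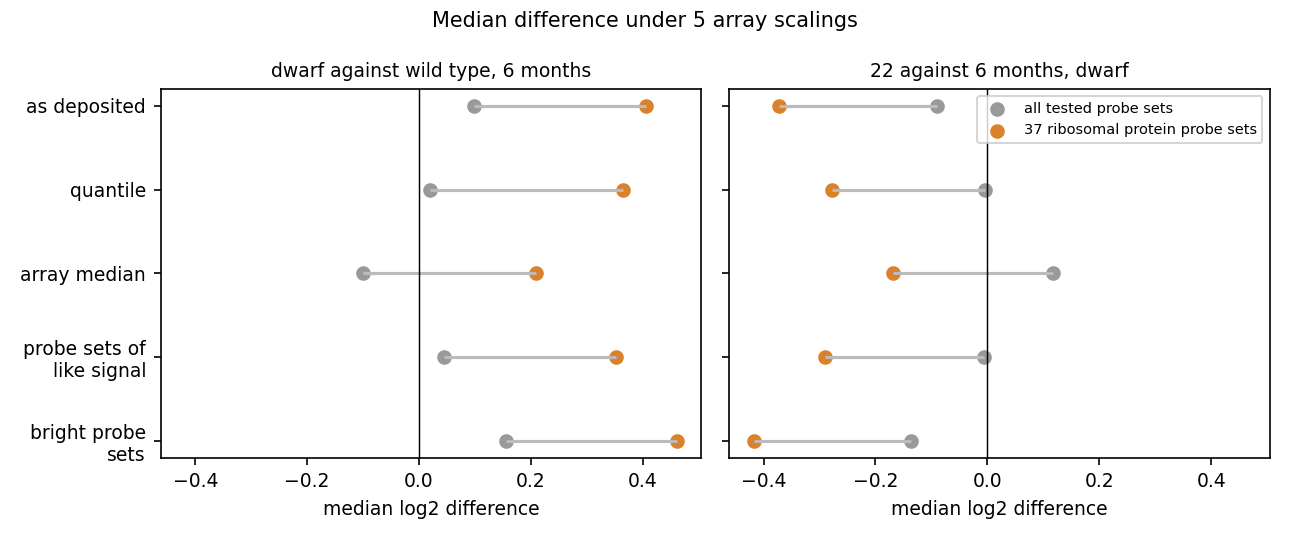
Median log2 difference of the 37 ribosomal protein probe sets (orange) and of all tested probe sets (grey) under 5 array scalings, for dwarf against wild type mice at 6 months (left) and 22 against 6 months in dwarfs (right). Both medians shift with the scaling. Of the 4 alternatives only quantile scaling could by its construction change the gap between them, which was 0.31 as deposited and 0.35 with it on the left, and -0.28 and -0.27 on the right.

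Other measures moved with the young dwarf group. The 25th percentile of signal was 65.4 ± 7.80 in young dwarfs and 52.7 ± 2.99, 49.8 ± 4.44 and 50.7 ± 3.74 in young wild types, old wild types and old dwarfs. The ratio of the 3′ to the 5′ actin control, which rises with degraded or short cDNA, was 2.51 ± 0.209, 1.87 ± 0.602, 1.61 ± 0.118 and 1.46 ± 0.180 in the same order. The Gapdh 3′ to 5′ ratio, like the actin ratio, overlapped between the genotypes at 6 months. With the mean of the log2 actin and Gapdh ratios as a covariate 5 members stayed called at 6 months. They were Rps28 on 2 sets, Rps13, Rps18 and Rps10. The count was also 5 when only the 6-month groups were fitted, and it fell to 8, 8 and 7 without wild type 82, wild type 88 and dwarf 89.

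Markers of other cell types are given beside the comparison. Of 5 tested B and plasma cell genes 4 were higher in young dwarfs, with a summed signal of 3623 to 5373 against 2274 to 3523 in young wild types. In old mice that sum was 4246 to 6988 in wild types and 2824 to 4049 in dwarfs. Of 5 tested endothelial genes 3 were higher (summed signal of all 6 listed, 2510 to 3127 in young dwarfs, 1646 to 2054 in young wild types, 1899 to 1933 in old wild types and 2068 to 2118 in old dwarfs). Hepatocyte markers gave 2 higher, Alb and Apoa1, and 1 lower, Fgb, of 7, with summed signals of 169865 to 245022, 138291 to 161665, 131608 to 168734 and 134306 to 158292 in the same order of groups. The 2 tested T cell, 5 Kupffer cell and 4 stellate cell genes gave 0 calls, and of 2 erythroid genes Alas2 was lower. The sum over 6 stellate cell genes was nonetheless 7899 to 10447 in young dwarfs and 6623 to 7358 in young wild types. Cd8a and Marco, which define cytotoxic T cells and some macrophages, were at the floor on all arrays. The part of cell make-up in the ribosomal protein result was not tested.

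At 22 months the comparison asked whether the genotypes differ in old mice (n = 3 each). Ribosomal protein signals of old dwarfs and old wild types lay close together, and the high level of young dwarfs was not seen. Of the 37 probe sets 0 were called higher and 1 lower in limma's test, where 1.37% and 1.56% of all tested sets were. The median log2 difference was -0.08, against 0.01 for all sets, and 9 of the 37 lay above 0, where 50.8% of all sets did. At an unadjusted p under 0.05, 1 of the 37 differed, and 922 of all 7227 tested sets did. The several-symbol sets gave 0 calls, with 1 at an unadjusted p under 0.05 and a median of -0.08.

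The one call was Rpl13a. Its probe set, a dim one, read 576, 453 and 554 in old wild types and 257, 328 and 220 in old dwarfs, with no overlap. The difference was -0.99 ± 0.23 (1.99-fold lower in dwarfs, adjusted p = 0.0229). At 6 months the signals were 375, 423, 351 and 357 in wild types and 380, 230, 263 and 359 in dwarfs, which overlap. The call was lost without wild type 1, wild type 24, dwarf 3 or dwarf 8, and the set did not enter the test under the stricter filter.

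The bright members that were high in young dwarfs gave small values here. Rps28 on its standard set gave 0.15 ± 0.20, Rps18 -0.05 ± 0.17, Rps10 -0.17 ± 0.20 and Rpl41 -0.09 ± 0.13, all with adjusted p of 0.868 or more. The smallest p among members not called were those of Rplp0 (-0.33 ± 0.16, adjusted p = 0.395) and Rps19 (-0.29 ± 0.17, adjusted p = 0.565), with old dwarfs below old wild types in every pair of signals. Signals failed to overlap for 4 of the 37, all lower in dwarfs, where 11.5% of all sets lay that way and 10.3% the other. Of the Kupffer cell and macrophage genes 1 of 5, Clec4f, was lower in old dwarfs and 0 of 5 lay above 0 (summed signal 2237 to 2962 in old dwarfs and 3317 to 5269 in old wild types), and their part was not tested.

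**Figure D4:**
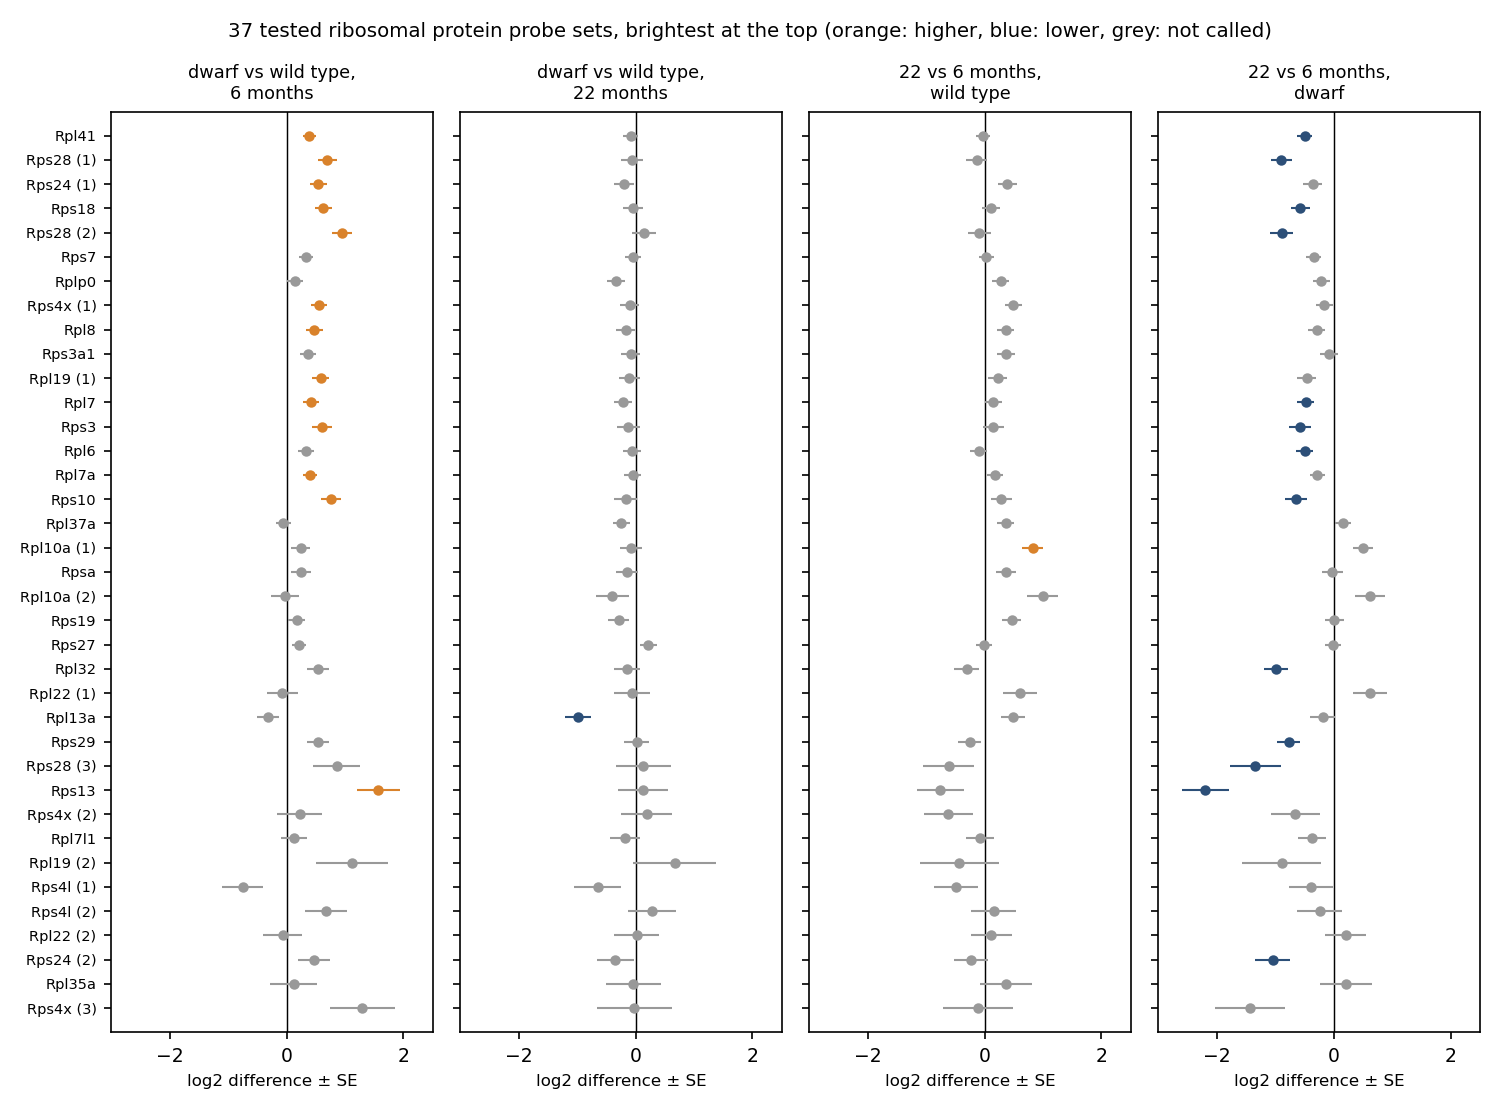
Log2 difference with its standard error for the 37 tested ribosomal protein probe sets, ordered by mean signal with the brightest at the top, in 4 comparisons; orange and blue mark sets called higher and lower, and numbers in brackets rank the sets of one gene by signal. The calls are 13 higher at 6 months, 1 lower at 22 months, 1 higher with age in wild types and 13 lower with age in dwarfs.

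In wild types, ageing from 6 to 22 months asked how the genes change in normal mice. Only Rpl10a, a protein of the stalk that moves tRNA out of the ribosome, was called. It read 2274, 2265, 2711 and 3110 in young wild types and 4095, 4684 and 4877 in old ones, a difference of 0.82 ± 0.18 (1.77-fold, adjusted p = 0.026). Old dwarfs read 4525, 4500 and 3905, against 3716, 2693, 2259 and 3745 in young dwarfs. Both old groups thus stood above both young groups, and the difference in dwarfs was 0.50 ± 0.18 (adjusted p = 0.0644). A second set, of the shared-family kind, gave 0.99 ± 0.26 in wild types (adjusted p = 0.0568) and 0.62 ± 0.26 in dwarfs (adjusted p = 0.111). The call in wild types was lost with median scaling and without any single wild type except animal 88.

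Across the members, 1 of 37 was higher and 0 lower in old wild types, where 1.45% and 1.04% of all sets were. The median was 0.15, against -0.02 for all sets, and 22 of the 37 lay above 0, where 48.3% of all sets did. Signals of 12 members did not overlap, all higher in old mice, where 8.12% of all sets lay that way. Beyond the Rpl10a sets, the smallest p was that of Rps4x (0.49 ± 0.15, adjusted p = 0.0946), whose bright set read 7537, 7280, 7616 and 5915 in young and 11001, 8988 and 9877 in old wild types. Of the B and plasma cell genes 3 of 5 were higher in old wild types, with the sums given above. Of the Kupffer cell and macrophage genes 1 of 5, Lyz2, was higher and all 5 lay above 0 (median 0.68, summed signal of all 7 listed 2619 to 4214 in young and 3317 to 5269 in old wild types). Of 7 hepatocyte markers 1, Pck1, was lower. The part of these markers was not tested.

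In dwarfs, the same ageing comparison gave lower ribosomal protein signal in old mice. Of the 37 probe sets 13 fell, for 11 genes, and 0 rose, where 8.57% of all sets fell and 7.94% rose. Without the 3 sets that passed the filter only through the young dwarf arrays, 12 of 34 fell. The median was -0.37, against -0.09 for all sets, and 7 of the 37 lay above 0, where 43.1% of all sets did. The several-symbol sets gave 13 lower and 0 higher of 36. This comparison and the one at 6 months share the young dwarf arrays, so the same high arrays enter both. Signals did not overlap for 12 sets lower and 2 higher in old dwarfs, where 16.5% and 12.6% of all sets lay so.

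Of the 11 genes called lower, 7 encode small-subunit proteins, with Rps24 among them only through its dim set. Rps13 fell by 2.20 ± 0.40 (adjusted p = 0.00305), and all 3 sets of Rps28 fell, by 0.89 ± 0.18, 0.89 ± 0.19 and 1.34 ± 0.44 (adjusted p = 0.00525, 0.00754 and 0.0492). Rps29, a small zinc-binding protein, read 386, 419, 581 and 511 in young and 233, 287 and 310 in old dwarfs and fell by 0.77 ± 0.20 (adjusted p = 0.0169). Its 2 groups did not overlap, and its wild types read 249 to 382 at both ages. Rps10 (-0.64 ± 0.18, adjusted p = 0.0281), Rps18 (-0.57 ± 0.16, adjusted p = 0.0259) and Rps3 (-0.58 ± 0.18, adjusted p = 0.0423) fell as well. For Rps24 the dim set was called lower (-1.04 ± 0.30, adjusted p = 0.0263), but it passed the filter only through the young dwarf arrays, the group where it is high. The bright set of Rps24 gave -0.36 ± 0.16 and was not called (adjusted p = 0.137).

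The large-subunit genes that fell were Rpl32, Rpl41, Rpl6 and Rpl7. Of their sets, only that of Rpl6 is of standard design. Rpl32 read 613, 819, 872 and 896 in young and 331, 385 and 501 in old dwarfs, a fall of 0.99 ± 0.21 (adjusted p = 0.00693) without overlap. Rpl41 fell by 0.50 ± 0.12 (adjusted p = 0.014), Rpl6 by 0.49 ± 0.15 (adjusted p = 0.0336) and Rpl7 by 0.48 ± 0.14 (adjusted p = 0.0341). Closest to the threshold among the rest were Rpl19 (-0.46 ± 0.16, adjusted p = 0.0629) and Rpl10a, which went the other way as given above. Rplp0 (-0.21 ± 0.15), Rpsa (-0.02 ± 0.18), Rpl13a (-0.19 ± 0.21) and Rps4x on its bright set (-0.16 ± 0.15) were not called.

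**Figure D5:**
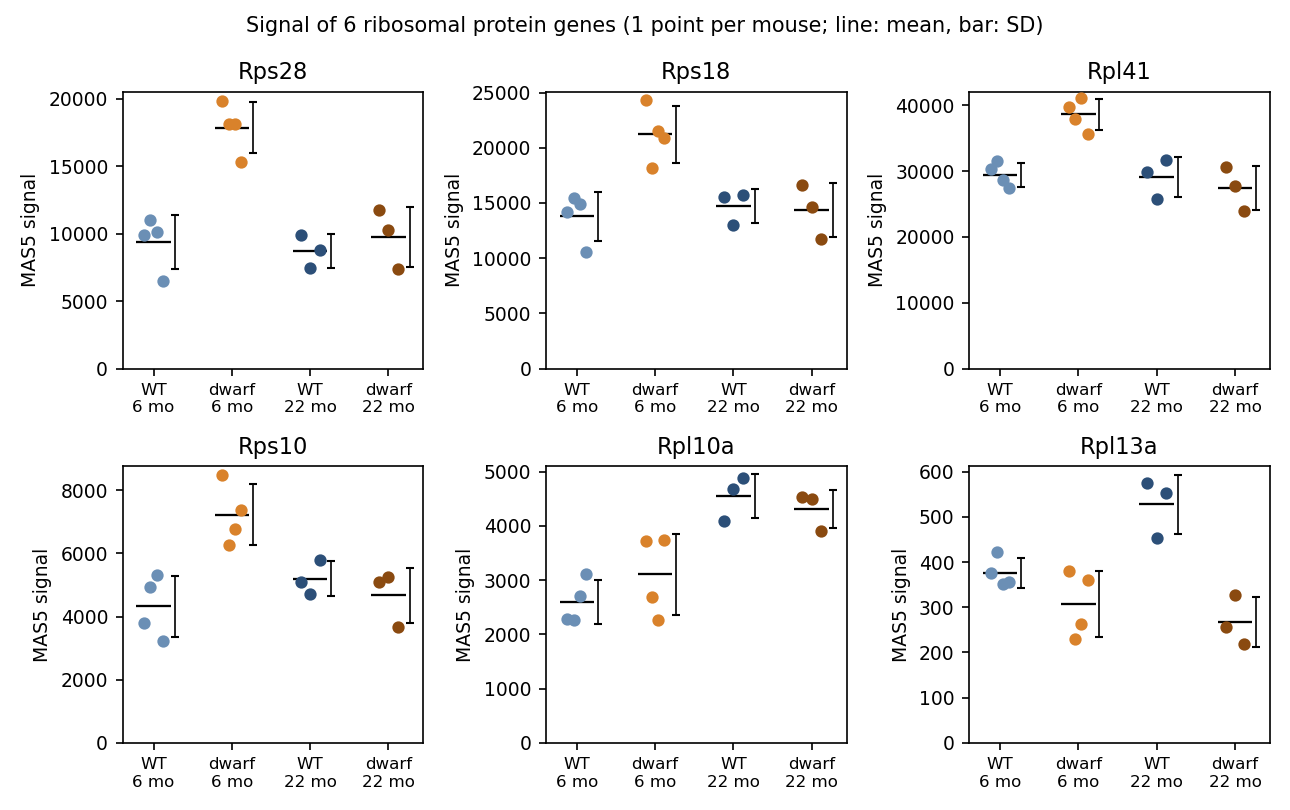
MAS5 signal of 6 ribosomal protein genes in each of the 14 mice, by group (1 point per mouse, line for the mean, bar for the SD; each axis starts at 0). Rps28 on its standard set, Rps18, Rpl41 and Rps10 are highest in the 4 young dwarfs, Rpl10a is higher in both old groups than in both young ones, and Rpl13a is lower in old dwarfs (268 ± 55.3) than in old wild types (528 ± 65.5).

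The count in dwarfs changed with array measures that differ between the ages. With the 18S ribosomal RNA control as a covariate 0 of the 37 were called. With the mean of the log2 actin and Gapdh 3′ to 5′ ratios as a covariate 0 were. The 18S control read 60.8 to 217 in young dwarfs and 418 to 1049 in old ones. The actin ratio read 2.29 to 2.69 in young dwarfs and 1.25 to 1.57 in old ones, and the Gapdh ratio 1.31 to 1.77 and 0.821 to 0.968. None of these overlapped, so age cannot be told apart from any of them in dwarfs. Under median scaling 5 fell and 1, Rpl10a, rose, with the share of all calls that were higher moving from 48.1% to 79.4%. On probe sets of like signal, where that share was 62.5%, 7 fell and Rpl10a rose. The count of calls was 6, 8, 5 and 8 without dwarf 3, 4, 8 and 87. Hepatocyte markers gave 4 lower of 7 with age in dwarfs, and endothelial and stellate cell markers 1 lower each, and their part was not tested.

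Whether the genotype difference changed with age was tested by the interaction in limma. The difference at 22 months was below that at 6 months for 33 of the 37, including all 17 bright sets, with a median of -0.48 against -0.07 for all tested sets. Of all tested sets 43.7% lay above 0, and of the 426 bright sets 52.3% did. None of the 37 passed an adjusted p of 0.05, where 0.65% of all sets were called in that direction and 1.54% in the other. At an unadjusted p under 0.05, 16 of the 37 differed, and 1044 of all 7227 tested sets did. The smallest adjusted p were those of Rps10 (-0.93 ± 0.26, adjusted p = 0.0868) and Rps24 on its bright set (-0.75 ± 0.23, adjusted p = 0.126). Of the several-symbol sets 2 of 36 were called, both in that direction. Quantile scaling gave 1 call, Rpl7, and scaling on the bright sets 3, Rpl8, Rps24 and Rps10. Leaving out dwarf 85 gave 2. Of the B and plasma cell genes 2 of 5, Cd74 and Ighm, were called in the same direction and 0 of 5 lay above 0 (median -1.29), and of 2 erythroid genes Alas2 was called in the other. The part of these markers was not tested. The share of all interaction calls whose genotype difference was higher at 22 than at 6 months was 70.3% as deposited. It was 89.3% with median scaling and 58% with scaling on the bright sets.

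Other genes of translation were read from lists alongside. Beside every list stand the shares over all tested sets. At 6 months 6.37% were higher and 6.95% lower, with 59.1% above 0 and a median of 0.10. With age 7.94% rose and 8.57% fell in dwarfs, and 1.45% rose and 1.04% fell in wild types. At 22 months 1.37% were higher and 1.56% lower in dwarfs, and the interaction called 1.54% and 0.65%. Ribosome-associated genes and other mRNAs with a TOP tract gave 0 higher and 0 lower of 16 at 6 months, with a median of 0.34 and 14 above 0. In old against young wild types Eef2, which moves the ribosome along the mRNA, rose by 0.72 ± 0.17 (adjusted p = 0.0376). In dwarfs Naca, which binds nascent chains, fell by 0.76 ± 0.18 with age (adjusted p = 0.0114). Elongation and release factors gave 0 of 9 at 6 months (median 0.32), and Etf1, the factor that reads stop codons, fell with age in dwarfs by 0.64 ± 0.13 (adjusted p = 0.0066).

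Initiation factors gave 1 higher and 0 lower of 34 at 6 months, with a median of 0.00. The one was Eif4ebp1, a repressor of cap-dependent initiation that mTORC1 switches off, at 643 in young dwarfs against 395 in young wild types (0.71 ± 0.16, adjusted p = 0.00707). It fell with age in dwarfs by 0.75 ± 0.17 (adjusted p = 0.00935), and its interaction was called (-1.04 ± 0.24, adjusted p = 0.0339). Eif6, which keeps the subunits apart, rose with age in dwarfs (0.68 ± 0.17, adjusted p = 0.0163), and the Y-linked Eif2s3y rose with age in wild types (1.26 ± 0.19, adjusted p = 0.00401) and dwarfs (1.17 ± 0.19, adjusted p = 0.00185). Of 13 genes of mTORC1 and MYC signalling, a list that also holds Eif4ebp1, that gene was the one called at 6 months. With age in dwarfs Tsc2, a brake on mTORC1, also fell (-0.51 ± 0.17, adjusted p = 0.0454).

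Genes of ribosome assembly and RNA polymerase I gave 1 higher and 1 lower of 26 at 6 months. Ncl, the nucleolar protein nucleolin, rose (0.69 ± 0.17, adjusted p = 0.0132), and Bop1, needed for large-subunit maturation, fell (-1.20 ± 0.36, adjusted p = 0.0385). With age in dwarfs Polr1b, a core subunit of RNA polymerase I, fell by 0.83 ± 0.18 (adjusted p = 0.00832).

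Mitochondrial ribosomal proteins, which form the separate ribosome inside mitochondria, gave 0 higher and 1 lower of 59 at 6 months, with a median of -0.07. The one was Mrpl4 (-0.66 ± 0.16, adjusted p = 0.0124). With age in dwarfs 7 of the 59 rose and 0 fell, with a median of 0.12 where the cytosolic set stood at -0.37. Mrps34 went from 655 to 1359 (1.06 ± 0.23, adjusted p = 0.0081) and Mrpl4 from 560 to 1010 (0.85 ± 0.17, adjusted p = 0.00581). The others were Mrpl20, Mrpl34, Mrpl36, Mrpl50 and Mrps5, at 0.64 to 1.25. The 7 are 11.9% of the 59, where 7.94% of all sets rose. At 22 months Mrpl50 was higher in dwarfs (0.93 ± 0.22, adjusted p = 0.0246).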

How the data were processed

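The values are probe set signal intensities as deposited by the authors, on a linear scale, which MAS5 produced, per the submitters' processing notes (version, normalisation details and scan batches are not given in the sources used here). The 2% trimmed mean of each array was near 500. Gene symbols come from the platform annotation: 10855 probe sets have 1 symbol, 396 several and 1237 none listed. Values below 54.9, the pooled 25th percentile, were raised to it, and log2 was taken. Probe sets above 184.8 on at least 3 arrays were tested (7227, with 66 controls left out) with limma 3.58.1 in R 4.3.3, with an intensity trend, 4 group means and 5 contrasts, and Benjamini-Hochberg adjustment over all sets with a threshold of 0.05. Animal numbers come from the titles, and p-values measure the spread between those mice. The number of arrays limits the precision. Promoters were read with Python 3.11.15.

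The members and all lists were chosen with earlier results of these data known. Genes named in the text are, per contrast and direction, up to 8 called members with the largest change, the brightest and dimmest members, members with several tested sets, a fixed set of reference and stalk genes, paralogs, the 2 members not called with the smallest p, and called genes of the translation lists; other members just short of these are named for completeness after their values were seen. The fit was tested on simulated data. The alternatives were other scalings, floors, filters, variance models, covariates, probe set choices and leaving out each array. Scaling on bright sets was added after the data were seen.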

Additional observations from a re-analysis of the deposited data

Results flagged for a closer look

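Tests for a single mouse far from the other 3 of its group were run on the 37 probe sets in both 6-month groups. Of these 74 tests 2 stood out, a smaller share than the 1 in 20 or so that chance gives. Rpl6 read 5169.7 in wild type animal 88, against 6813.9 to 7052.1 in the other 3 young wild types. Animal 88 also had the lowest mean ribosomal protein signal of all 14 arrays and the highest 18S control of the young mice (587.6). Rpl7a read 8672.9 in dwarf animal 89, against 6403.6 to 6550.2 in the other 3 young dwarfs, and its call at 6 months was lost without that animal.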

How the results depend on the processing

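Counts below are of called members among those tested. At 6 months (13 as reported) median scaling gave 2, scaling on sets of like signal 7, no filter 8, no intensity trend 7, array weights 8, the 3′ to 5′ covariate 5, only the groups compared 5 and only standard-design probe sets 8. Leaving out each array gave 7 to 15, and 2 of the 13 (1 set of Rps28 and Rps13) stayed called under every setting that refitted the data. At 22 months (1) the stricter filter at the 75th percentile gave 0, and leaving out each array 0 to 1. With age in wild types (1), median scaling, no filter, no intensity trend and the 18S covariate gave 0. Scaling on bright sets, the stricter filter, array weights and only the groups compared gave 2, the 3′ to 5′ covariate gave 3, and leaving out each array 0 to 2. With age in dwarfs (13) median scaling gave 6, sets of like signal 8, no filter 7, no intensity trend 8, the 18S covariate 0, the 3′ to 5′ covariate 0 and only standard-design sets 7. Leaving out each array gave 5 to 13. For the interaction (0) quantile scaling gave 1, bright sets 3, and leaving out each array 0 to 2. The dimmest set of Rps28 turned from a fall with age in dwarfs to 0.0614 with the 3′ to 5′ covariate. The cause of these changes was not tested. No paired analysis was possible because the animal numbers in the titles do not recur between groups.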
